A study of Mus musculus with 4 samples.

Results

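The naive pluripotency transcription factors Klf2, Klf4, Klf5, Esrrb, Tfcp2l1, Tbx3, Zfp42, Nr5a2, Prdm14 and Nr0b1 were followed in single cells of day 6 embryoid bodies (EBs). These 10 genes of the 25209 measured were taken by name, and all 10 were listed in every library. EBs are aggregates in which mouse embryonic stem cells (ESCs) differentiate without directing signals. Wild-type (WT) EBs came from V6.5 ESCs, and LSD1KO EBs came from V6.5 ESCs in which CRISPR/Cas9 had removed the promoter and first exon of Lsd1 (Kdm1a), the gene for a histone demethylase that is a subunit of the CoREST complex. ESCs of both genotypes were kept naive with the 2i inhibitors and LIF, and the EBs then grew in hanging drops without them. Each genotype had 2 biological replicates with 1 library each. The study's methods name independent clones for its RNA-seq in general and only biological replicates for the single-cell libraries, so whether the LSD1KO libraries come from separate clones is not stated for them.

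Naive pluripotency is the state of the preimplantation epiblast. It is held by a network of transcription factors that LIF, through Stat3, and the block of MEK and GSK3 keep active in culture. On exit from that state the naive factors are switched off and cells pass through a formative state before they enter a lineage. Several of the same factors are used again later, such as Tbx3 in heart and endoderm, Tfcp2l1 in epithelia and Klf2 in endothelium, so that a level measured in a whole EB mixes naive cells with tissues.

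Cells were therefore sorted by computer into gates from markers that include none of the 10 factors. A cell was called pluripotent when it held a UMI (a unique molecular identifier, which counts 1 captured transcript) of at least 3 of 8 pluripotency markers, and of more of them than of any tissue list. Among these, a cell with more of 6 naive-side markers (Dppa3, Tcl1, Tdh, Fbxo15, Spic, Tex19.1) than of 6 formative-side markers (Pou3f1, Fgf5, Otx2, Sox3, Dnmt3b, Zic2) went to the naive gate. The others went to a gate with at least 3 of 8 neuron markers, to a formative gate or to an unresolved one. All other cells went to the tissue whose markers they held most, with at least 3 of its 8 markers and no tie, or to no gate. Gates are called by their markers and not by cell type, because in WT cells of the formative gate and of both gates on neuron markers none of the gate's own markers was among the 10 genes with the largest fold over other cells.

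Barcodes that passed a minimum of 500 UMIs and 500 genes numbered 4393 and 6828 in WT and 5693 and 3045 in LSD1KO, from libraries of 72285943 to 75406512 UMIs, with medians of 9211 to 20304 UMIs per cell. Replicates of a genotype differed by far more than sampling noise. Kdm1a was at 217 and 229 CPM (UMIs of a gene scaled to a common total of UMIs) in WT and at 1.16 and 0.841 CPM in LSD1KO, and the counted tags lie at the 3′ end, outside the deleted part. Between 3 and 15 cell barcodes were shared by any 2 libraries. The doublet caller Scrublet marked 2 cells in all, so it did not work here, and no doublets were removed. The pluripotent gates took up 50 and 282 WT cells (1.14% and 4.13%) and 2320 and 1751 LSD1KO cells (40.8% and 57.5%). The naive gate made up 42.0% and 54.6% of the pluripotent cells in WT and 2.67% and 3.37% in LSD1KO, where cells with neuron markers made up 70.0% and 77.5%. A pool of all pluripotent cells thus held a different mix of cells in each genotype. Pluripotent cells with neuron markers were deeper than formative-gate cells in every library. Their medians were 16281 and 29932 UMIs in LSD1KO, against 10071.5 and 16628 UMIs in the formative gate. In WT the medians were 35932 and 15719.5 UMIs, against 15444 and 12914 UMIs. A deeper cell has more chance to show a marker. The part of depth or of doublets in the size of these gates was not tested.

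The 250 bases before the start sites of 4 members are printed because these genes carry the main contrasts below. Zfp42 was higher outside the pluripotent gates of LSD1KO EBs, Klf2 and Esrrb were lower inside them, and Nr0b1 had nearly the same level in the naive gates. Capitals mark CCACCC, a form of the CACCC box that Krüppel-like factors bind, or its complement GGGTGG. Sequences are from RefSeq on GRCm38.p6, written 5′ to 3′ on the gene's strand.
Zfp42, chr8:43307010-43307259, minus strand: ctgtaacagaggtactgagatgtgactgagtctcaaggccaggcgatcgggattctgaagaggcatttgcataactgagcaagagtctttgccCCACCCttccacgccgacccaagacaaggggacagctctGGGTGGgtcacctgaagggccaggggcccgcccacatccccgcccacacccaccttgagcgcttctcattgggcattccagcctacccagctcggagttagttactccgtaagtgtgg
Klf2, chr8:72318812-72319061, plus strand: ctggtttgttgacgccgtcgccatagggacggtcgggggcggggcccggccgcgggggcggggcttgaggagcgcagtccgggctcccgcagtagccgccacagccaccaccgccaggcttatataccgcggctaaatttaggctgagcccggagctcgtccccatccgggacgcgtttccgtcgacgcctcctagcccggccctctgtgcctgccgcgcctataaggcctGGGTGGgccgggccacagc
Esrrb, chr12:86421394-86421643, plus strand: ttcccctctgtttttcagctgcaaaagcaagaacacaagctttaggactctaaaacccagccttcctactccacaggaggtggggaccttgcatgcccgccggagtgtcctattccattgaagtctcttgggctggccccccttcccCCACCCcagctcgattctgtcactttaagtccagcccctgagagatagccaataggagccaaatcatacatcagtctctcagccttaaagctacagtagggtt
Nr0b1, chrX:86191525-86191774, plus strand: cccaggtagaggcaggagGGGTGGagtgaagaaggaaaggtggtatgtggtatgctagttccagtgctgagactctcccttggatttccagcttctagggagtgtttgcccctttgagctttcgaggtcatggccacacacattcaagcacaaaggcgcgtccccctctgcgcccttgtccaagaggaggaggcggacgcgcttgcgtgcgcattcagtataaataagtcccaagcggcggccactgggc
Of the 10 members 7 matched the promoter table, with 9 promoters, and Klf5, Tbx3 and Prdm14 were not matched. CCACCC or GGGTGG was in 6 of these 9 promoters and in 28.1% of all 32851 promoters of that length. AAGGTCA or TGACCTT, the core of the element that Esrrb and Nr5a2 bind, was in 0 of the 9 and in 4.08% of all. These are matches of letters only, and whether any factor binds there was not measured. On mm9, the build of the counts, Zfp42 lies at chr8:44380422-44392363, Klf2 at chr8:74842932-74845555, Esrrb at chr12:87702067-87862578 and Nr0b1 at chrX:83437103-83441286.

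To ask whether cells that look naive by other genes hold the same factors in both genotypes, UMIs of the naive gate were summed per library, which gave 21 and 154 WT cells and 62 and 59 LSD1KO cells. This gate was tested on its own after the data had been seen, and WT replicate 1 lies under the minimum of 30 cells set for a library. Klf4, Esrrb, Tfcp2l1, Nr5a2 and Prdm14 were lower in LSD1KO naive-gate cells, by edgeR's quasi-likelihood test at an adjusted p under 0.05. These were 5 of the 10 members, against 4.33% of the 9190 genes tested that were called lower, 6.83% called higher and 11.2% called in either direction. No member was called higher, and the median log2 fold change of the 10 was −1.25, beside −0.00488 over all genes.

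Among the orphan nuclear receptors, Nr5a2, which binds the Pou5f1 promoter and enhancer in early epiblast, was at 110 and 113 CPM in WT and at 22.0 and 24.9 CPM in LSD1KO. The genotypes lay far apart and the replicates close together, with a log2 fold change of −2.12 (SE 0.25, adjusted p = 0.000100). Esrrb, a target of Nanog and of GSK3 inhibition, was at 133 and 94.0 CPM in WT and at 45.2 and 41.9 CPM in LSD1KO. It fell by 1.17 on the log2 scale (SE 0.24, adjusted p = 0.00533). Nr0b1, which encodes the corepressor Dax1, was at 22.7 CPM in both WT libraries and at 19.5 and 26.3 CPM in LSD1KO. Its LSD1KO values lay on either side of the WT values (log2 fold change 0.16, SE 0.35, adjusted p = 0.828), an error that leaves a modest difference in either direction possible.

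Tfcp2l1, a direct target of Stat3 and a core factor of the naive state, was at 74.4 and 71.9 CPM in WT and at 17.1 and 19.9 CPM in LSD1KO. Its log2 fold change was −1.83 (SE 0.28, adjusted p = 0.000725), again with no overlap. Prdm14, which represses Fgf receptor genes and recruits Polycomb in naive and germ cells, gave 6 and 28 UMIs (19.4 and 15.9 CPM) in WT. In LSD1KO it gave 0 UMIs and 1 UMI in more cells than WT replicate 1 had. Summed over libraries, the LSD1KO level was 0.0274 times the WT level, with a counting interval of 0.000674 to 0.163, and edgeR gave an adjusted p of 0.00177.

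The Krüppel-like factors, which can replace one another in part in naive ESCs, did not all differ alike in size. Klf4 was at 29.1 and 44.2 CPM in WT and at 13.4 and 7.81 CPM in LSD1KO (log2 fold change −1.88, SE 0.40, adjusted p = 0.00652). Klf2, the member that MEK inhibition stabilises as a protein, was at 265 and 401 CPM in WT and at 187 and 239 CPM in LSD1KO. Klf5 was at 51.8 and 56.6 CPM in WT and at 37.9 and 35.5 CPM in LSD1KO. For both, every LSD1KO value lay below every WT value, yet neither passed the test (log2 fold changes −0.57 and −0.49, SE 0.22 and 0.26, adjusted p = 0.101 and 0.259).

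Zfp42, also called Rex1, is a zinc finger gene widely used as a reporter of the naive state. It was at 398 and 332 CPM in WT and at 226 and 246 CPM in LSD1KO, which did not overlap and did not pass the test (log2 fold change −0.47, SE 0.17, adjusted p = 0.0966). Tbx3, a T-box factor downstream of PI3K signalling, differed between the WT libraries themselves, with 42.1 and 14.7 CPM, and was at 11.0 and 5.68 CPM in LSD1KO (log2 fold change −1.32, SE 0.55, adjusted p = 0.133). In WT replicate 1 the naive gate also held visceral endoderm markers at a summed 239 CPM, against 3.96 CPM in WT replicate 2 and 9.77 and 7.10 CPM in LSD1KO. Visceral endoderm is the WT tissue in which Tbx3 stood highest. In barcodes of under 100 UMIs, taken as empty droplets, Tbx3 was at 43.4 and 24.4 CPM in WT and at 5.85 and 1.84 CPM in LSD1KO. Both WT naive-gate values lay below the droplet level of their library and both LSD1KO values above it. The part of visceral endoderm cells or of free RNA in the Tbx3 values was not tested.

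**Figure D1:**
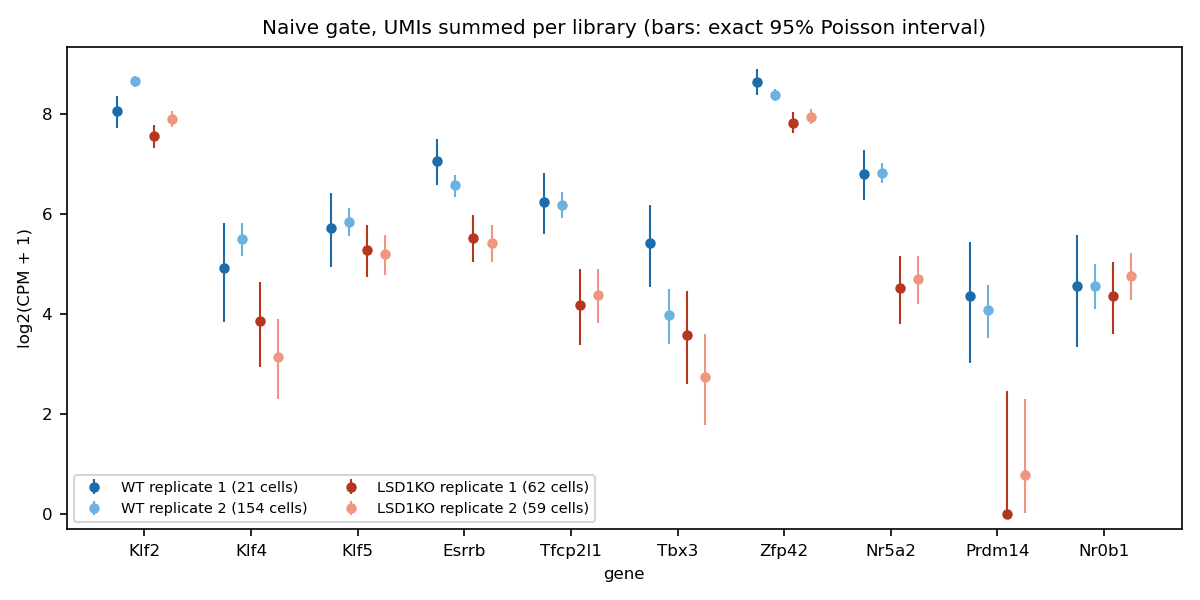
Levels of the 10 factors in naive-gate cells as log2(CPM + 1), with 1 point per library (2 WT in blue, 2 LSD1KO in red) and exact 95% Poisson intervals that cover counting error only. For Esrrb, Tfcp2l1, Nr5a2 and Prdm14 the LSD1KO points lie well below the WT points, while for Nr0b1 the 4 points lie together between 19.5 and 26.3 CPM.

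The same contrast was seen per cell. With every naive-gate cell thinned to 5000 UMIs, 14 of 18 (77.8%) and 101 of 144 (70.1%) WT cells held at least 3 of the 10 factors, against 17 of 54 (31.5%) and 14 of 51 (27.5%) LSD1KO cells. At least 5 of the 10 were held by 16.7% and 17.4% of WT cells and by 1.85% and 3.92% of LSD1KO cells. Thinning left out 3 and 10 WT cells and 8 and 8 LSD1KO cells that were shallower, and the unthinned shares with at least 3 factors were 95.2% and 90.9% in WT and 51.6% and 62.7% in LSD1KO. Both LSD1KO shares lay below both WT shares at either number of factors, with no test run on cells.

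Other genes differed in these cells too. The markers that chose the gate summed to 867 and 1205 CPM on the naive side in WT and to 795 and 795 CPM in LSD1KO, and formative-side markers to 84.1 and 108 CPM in WT and to 197 and 278 CPM in LSD1KO. Of the 8 pluripotency markers that chose the gate, the ranges of the genotypes overlapped for Dppa5a, Dppa4 and Fgf4. Tdgf1, a Nodal co-receptor, was at 84.1 and 74.2 CPM in WT and at 341 and 288 CPM in LSD1KO, and Dppa2 at 29.1 and 43.6 CPM in WT and at 131 and 117 CPM in LSD1KO. Utf1 was at 346 and 402 CPM in WT and at 176 and 275 CPM in LSD1KO, and Nanog at 155 and 170 CPM in WT and at 116 and 120 CPM in LSD1KO. Pou5f1 was at 136 and 124 CPM in WT and at 155 and 142 CPM in LSD1KO. These markers went both ways, and their differences are given with no test. Germ cells share naive genes, and 6 germ cell markers, each detected in every library, summed to 214 and 187 CPM in WT and to 78.2 and 90.9 CPM in LSD1KO. Of these, Tfap2c was at 84.1 and 75.9 CPM in WT and at 11.0 and 19.2 CPM in LSD1KO, and Prdm1 at 55.0 and 40.8 CPM in WT and at 8.55 and 17.8 CPM in LSD1KO. Ddx4, a later germ cell gene, went the other way, with 12.9 and 10.2 CPM in WT and 25.7 and 29.8 CPM in LSD1KO. Neuron markers summed to 171 and 129 CPM in WT and to 403 and 337 CPM in LSD1KO. The part of germ-cell-like cells, formative cells or RNA from neighbours in the factor levels was not tested.

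Calls in the naive gate depended on the test and on WT replicate 2. DESeq2 called 2 members, Tfcp2l1 and Nr5a2, which also passed under each of the other alternatives tried, and without WT replicate 2 edgeR called 3 members. Klf4 was lost without WT replicate 2 and without LSD1KO replicate 2.

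In the formative gate (21 and 83 WT cells, 564 and 289 LSD1KO cells), tested after the data had been seen, 7 of the 10 members passed the filter on low counts and 3 of these were lower in LSD1KO, against 3.37% of 11578 genes called lower, 4.53% higher and 7.9% in either direction. Klf2 was at 37.9 and 81.3 CPM in WT and at 11.7 and 17.6 CPM in LSD1KO (log2 fold change −2.25, SE 0.32, adjusted p = 0.00210). Esrrb was at 7.10 and 8.93 CPM in WT and at 1.33 and 2.25 CPM in LSD1KO, and Tfcp2l1 at 4.73 and 13.4 CPM in WT and at 1.17 and 2.25 CPM in LSD1KO (adjusted p = 0.0456 and 0.0263). Both rest on few UMIs and were lost by DESeq2, after removal of the cells with the highest Scrublet scores and when WT replicate 2 or either LSD1KO library was left out. With DESeq2, and without the cells of highest Scrublet scores, 1 member was called. Zfp42 gave 14.2 and 62.5 CPM in WT and 49.4 and 53.4 CPM in LSD1KO, so that the LSD1KO values fell within the WT range (log2 fold change 0.08, adjusted p = 0.928).

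Cells with both pluripotency and neuron markers, 1624 and 1357 in LSD1KO, had too few WT counterparts for a comparison (7 and 26 cells). In LSD1KO they held Esrrb at 0.896 and 1.26 CPM, against 45.2 and 41.9 CPM in the naive gate, and Klf2 at 9.75 and 10.2 CPM, against 187 and 239 CPM. Zfp42 was at 33.5 and 37.5 CPM in them and Klf5 at 28.5 and 11.6 CPM, so that Klf5 differed between the LSD1KO replicates by more than Zfp42 did.

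With all pluripotent gates pooled, 9 of the 10 members were lower in LSD1KO, against 9.33% of 14960 genes called lower and 20.1% in either direction, with a median log2 fold change of −3.18 beside 0.0355 over all genes. Klf5 was the exception, with 38.8 and 33.7 CPM in WT and 26.6 and 12.6 CPM in LSD1KO (log2 fold change −0.89, SE 0.37, adjusted p = 0.127). Esrrb was at 43.8 and 54.0 CPM in WT and at 1.99 and 2.64 CPM in LSD1KO, a log2 fold change of −4.45 (SE 0.23, adjusted p = 0.000147). Nr5a2 fell from 37.8 and 68.2 CPM to 2.98 and 2.86 CPM, and Klf2 from 114 and 242 CPM to 14.9 and 17.7 CPM. These pooled differences were larger than those within the naive gate, and the pools hold unlike shares of naive cells, so that a change of cell mix and a change within a cell cannot be told apart in them.

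Nr0b1 was lower in the LSD1KO pool although it was not called within the naive gate. It was at 6.96 and 16.1 CPM in the WT pool and at 1.28 and 2.52 CPM in the LSD1KO pool (log2 fold change −2.80, SE 0.47, adjusted p = 0.00701), while its level in the naive gate overlapped between genotypes. Zfp42 had 129 and 210 CPM in the WT pool and 41.4 and 45.4 CPM in the LSD1KO pool (log2 fold change −2.05, SE 0.22, adjusted p = 0.00118). The remaining 4 were Tfcp2l1, Prdm14, Klf4 and Tbx3, with log2 fold changes of −4.00, −4.94, −2.07 and −2.12 (adjusted p = 0.000353, 0.00181, 0.00459 and 0.0167). Tbx3 was at 12.9 and 9.18 CPM in the WT pool and at 3.32 and 1.60 CPM in the LSD1KO pool. Empty droplets held it at 43.4 and 24.4 CPM in WT and at 5.85 and 1.84 CPM in LSD1KO. Each pool value thus lay below the droplet level of its library, and the part of free RNA in the Tbx3 call was not tested. Tbx3 lost its call when any 1 library was left out, and without WT replicate 2, which holds most WT pluripotent cells, 5 members were called. Prdm14 was lost there, and Klf4 and Nr0b1 were lost there and without LSD1KO replicate 1.

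In WT the factors differed in how much of their UMIs came from outside the pluripotent gates. Tbx3 reached 148 and 98.1 CPM in visceral endoderm-marker cells, 71.4 and 62.1 CPM in cardiac-marker cells and 65.7 and 32.4 CPM in the Krt7 Cldn4 epithelium gate. It stood above the 42.1 and 14.7 CPM of the naive gate in both visceral endoderm and cardiac gates, and the pluripotent gates gave 0.361% and 1.63% of all Tbx3 UMIs in WT. Tfcp2l1 was at 98.2 and 42.7 CPM in visceral endoderm-marker cells and at 19.6 and 9.88 CPM in the epithelium gate, beside its 74.4 and 71.9 CPM in the naive gate. Its pluripotent share was 2.74% and 27.2% in WT.

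Klf5, a factor of epithelia and of trophectoderm, was at 20.4 and 20.3 CPM in the WT epithelium gate, and the pluripotent gates held 4.66% and 13.3% of its UMIs. Klf4, which marks differentiating epithelia, was at 15.3 and 8.68 CPM in cardiac-marker cells and at 11.3 and 9.60 CPM in visceral endoderm-marker cells, with 2.15% and 21.7% of its UMIs from pluripotent gates. Klf2, a factor induced by blood flow in vessels, was at 32.1 and 36.1 CPM in endothelial-marker cells and at or under 5.76 CPM in cardiac-marker cells. Endothelial-marker cells were its highest WT gate outside the pluripotent ones, and 23.8% and 64.8% of its UMIs came from the pluripotent gates. Free RNA can add to such levels. In WT barcodes of under 100 UMIs, taken as empty droplets, Tbx3 was at 43.4 and 24.4 CPM, Tfcp2l1 at 13.2 and 5.66 CPM and Klf4 at 10.7 and 4.19 CPM. Klf2 was at 9.92 and 17.0 CPM there and Klf5 at 4.54 and 7.39 CPM. Tissue levels named here lay above the droplet level of their library except for Klf2 in cardiac-marker cells, by little for Klf4 in visceral endoderm-marker cells of WT replicate 1, and the part of free RNA in them was not tested.

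The other 5 members were low in most named WT tissues. Nr0b1 gave 0 UMIs in every WT tissue gate, where the limit that a count of 0 allows is 3 UMIs, and pluripotent cells gave 7 of 7 and 58 of 60 of its UMIs. Zfp42 stayed at or under 2.94 CPM in each WT tissue gate, with 67.0% and 88.8% of its UMIs from pluripotent cells. Esrrb drew 51.8% and 86.2% of its UMIs from them. For Nr5a2 the share was 29.2% and 83.1%, and endothelial-marker cells held 11.0 and 3.53 CPM of it, from 26 and 5 UMIs. Prdm14 differed from these, since 6.82% and 33.7% of its few UMIs (88 and 98 in all) came from pluripotent cells and the rest lay thinly over the tissues at no more than 2.40 CPM, with 31 and 41 UMIs in cells of no gate.

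The shares were lower in WT replicate 1 than in WT replicate 2 for all members but Nr0b1, and WT replicate 1 held fewer pluripotent cells. With few UMIs the shares are wide, as for the 7 of 7 UMIs of Nr0b1, whose exact 95% binomial interval reaches down to 59.0% from counting error alone.

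**Figure D2:**
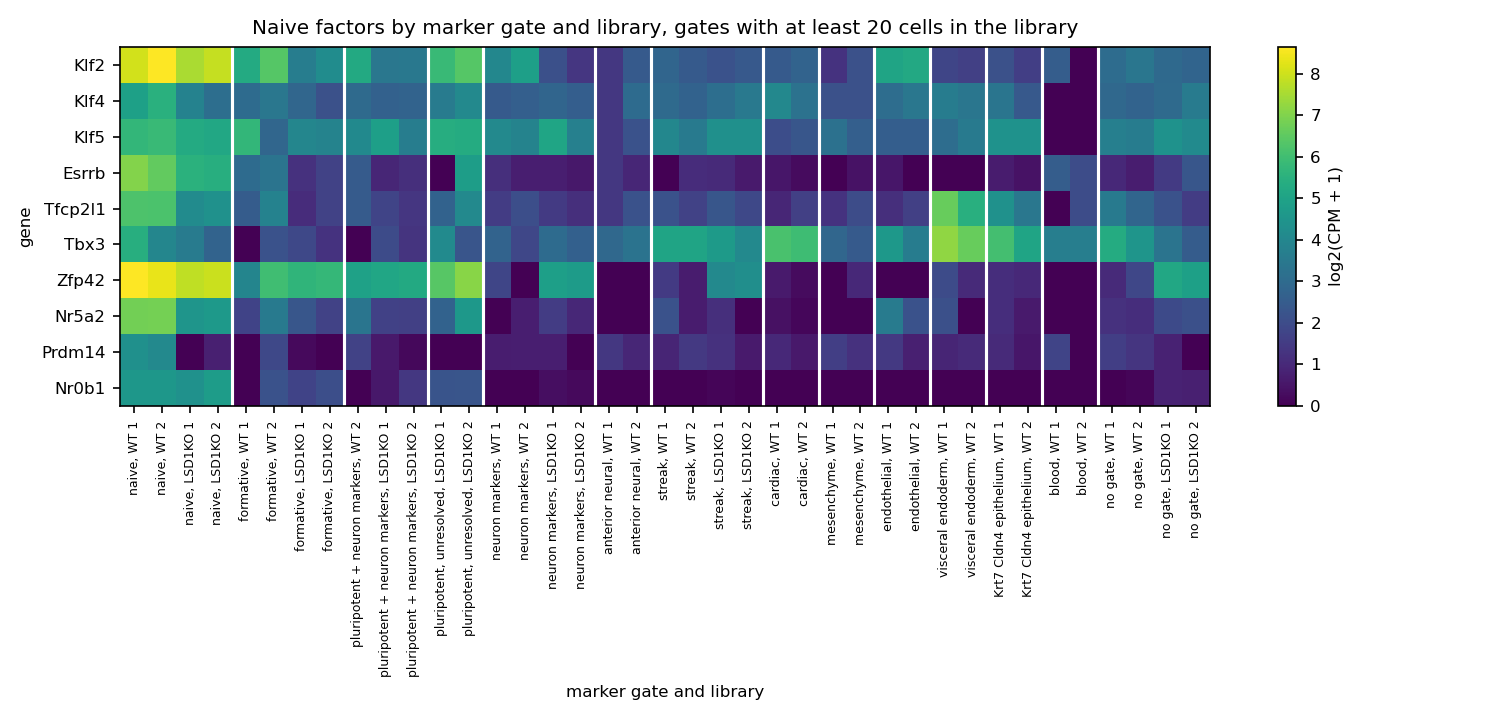
Level of each factor, as log2(CPM + 1), in each marker gate and library with at least 20 cells there. Colours are to be read along a row, as levels of different genes are not comparable, and every row but Tbx3 has its brightest WT cells in or near the naive gates at the left, apart from Tfcp2l1 in visceral endoderm of WT replicate 1.

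**Figure D3:**
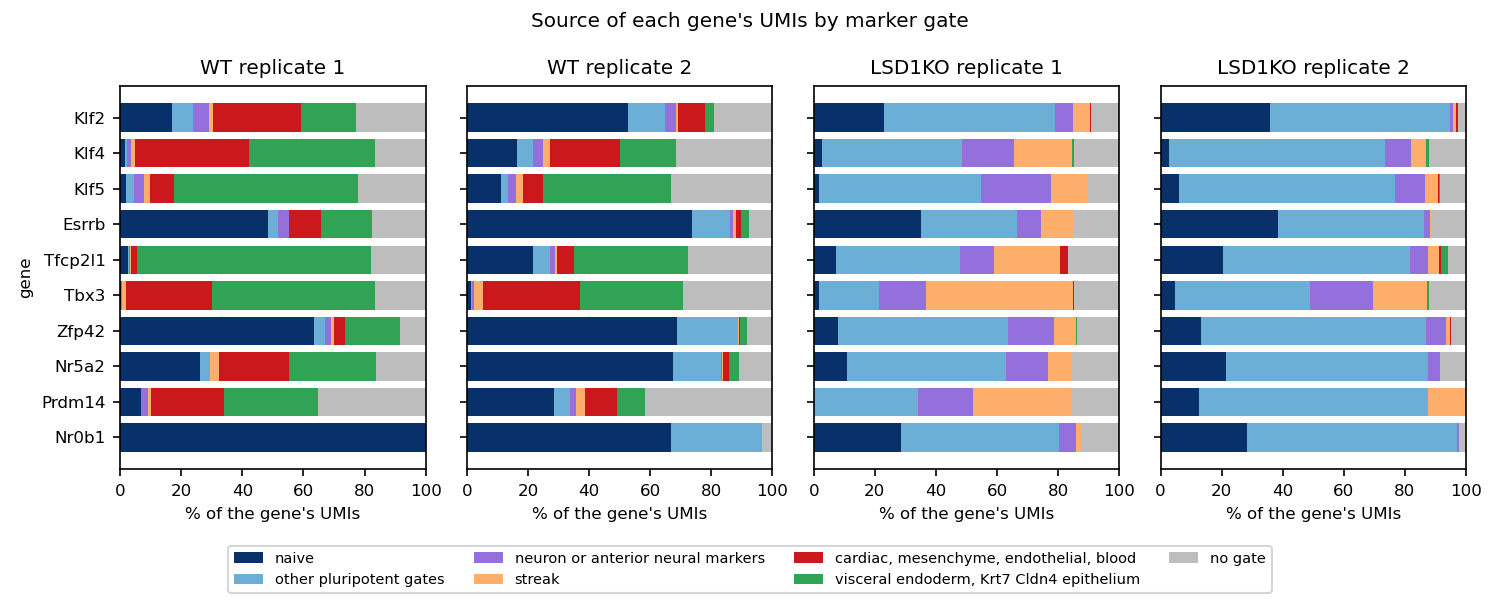
Share of each factor's UMIs, in percent, that came from each class of marker gates, with 1 panel per library. In WT, Nr0b1, Zfp42 and Esrrb draw most from the pluripotent gates in blue and Tbx3, Tfcp2l1 and Klf5 mostly from other gates, while in LSD1KO the pluripotent gates supply more of Tbx3, with 21.5% and 48.8%.

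Outside the pluripotent gates (4343 and 6546 WT cells, 3373 and 1294 LSD1KO cells) the members parted. Zfp42 and Nr0b1 were higher in LSD1KO, against 19.8% of 16494 genes called higher, and Klf2, Tfcp2l1 and Tbx3 were lower, against 18.1% called lower, so that 5 of 10 passed where 37.9% of all genes did. The median log2 fold change of the 10 was 0.10, beside −0.00858 over all genes. With library totals in place of TMM factors the share of calls that were higher went from 52.3% to 72.9%, and the direction of these 5 members stayed. Cells here could still hold pluripotency markers, and most LSD1KO cells but a minority of WT cells held at least 1 of them. Cell types differ here as well, since cardiac, blood and visceral endoderm gates held 1 LSD1KO cell in all. The loss of a tissue and a change within its cells cannot be told apart.

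Tbx3 was at 57.5 and 30.6 CPM in WT and at 13.5 and 6.49 CPM in LSD1KO (log2 fold change −2.28, SE 0.38, adjusted p = 0.00488). Tfcp2l1 was at 14.2 and 6.63 CPM in WT and at 3.12 and 1.93 CPM in LSD1KO (log2 fold change −2.18, SE 0.40, adjusted p = 0.00663). Each had its highest WT level outside the pluripotent gates in visceral endoderm-marker cells, of which LSD1KO EBs held 0 and 1. Within the streak gate, which both genotypes filled with 58 and 163 WT cells and 756 and 72 LSD1KO cells, Tbx3 was at 32.4 and 32.1 CPM in WT and at 25.0 and 15.6 CPM in LSD1KO. That smaller difference (log2 fold change −0.67, SE 0.24, adjusted p = 0.0407) was lost under 6 of 12 alternatives. Tbx3 was 1 of 2 members called there out of 4 that passed the filter on low counts, where 27.2% of 10616 genes were called. Empty droplets held Tbx3 at 43.4 and 24.4 CPM in WT and at 5.85 and 1.84 CPM in LSD1KO. The streak-gate value of WT replicate 1 lay below the droplet level of its library, and the other streak-gate values lay above theirs. The part of free RNA in the streak-gate call of Tbx3 was not tested.

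Klf2 was at 5.92 and 7.26 CPM in WT and at 4.38 and 3.78 CPM in LSD1KO outside the pluripotent gates (log2 fold change −0.90, SE 0.22, adjusted p = 0.0201), a call that was not made when WT replicate 2 or LSD1KO replicate 2 was left out. Each value lay below the Klf2 level in empty droplets of its library, 9.92 and 17.0 CPM in WT and 6.83 and 14.4 CPM in LSD1KO. The part of free RNA in this call was not tested. In the gate on neuron markers (65 and 112 WT cells, 872 and 292 LSD1KO cells), Klf2 was at 15.2 and 28.5 CPM in WT and at 3.28 and 1.57 CPM in LSD1KO (log2 fold change −3.16, SE 0.46, adjusted p = 0.00532). In the neuron-marker gate both LSD1KO values of Klf2 lay below, and both WT values above, the droplet level of their library. Among the 10 genes of that gate with the largest fold over other cells, its own markers numbered 0 in WT and 3 in LSD1KO. The part of free RNA or of unlike cells in the Klf2 call was not tested. Klf4, Klf5, Esrrb, Nr5a2 and Prdm14 did not pass outside the pluripotent gates, with log2 fold changes of −0.26, 0.46, 1.01, 0.46 and −1.15. Esrrb stayed low in both genotypes, at 0.658 and 0.477 CPM in WT and at 1.10 and 1.62 CPM in LSD1KO.

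Nr0b1 gave 0 and 2 UMIs in WT and 11 and 4 UMIs in LSD1KO outside the pluripotent gates. The ratio of summed levels was 21.4 with a counting interval of 4.97 to 193 (edgeR adjusted p = 0.0139). Only 8 alternatives gave a test of the gene, and 5 of these called it. It was not called with DESeq2, with 2 UMIs asked of each marker or when WT replicate 1 was left out. Empty droplets held Nr0b1 at 0 CPM in both WT libraries and at 0.975 and 2.45 CPM in LSD1KO, from 2 and 8 UMIs. Those droplet levels lay above the 0.346 and 0.309 CPM of LSD1KO cells outside the pluripotent gates. The part of free RNA was not tested, and 15 summed LSD1KO UMIs do not say in which cells, if any, the gene was on.

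Zfp42 was at 1.03 and 1.46 CPM in WT and at 26.2 CPM in both LSD1KO libraries outside the pluripotent gates, a log2 fold change of 4.17 (SE 0.22, adjusted p = 0.000102). The call held under all 12 alternatives. In the gate on neuron markers it was at 2.53 and 0 CPM in WT and at 28.4 and 26.2 CPM in LSD1KO (log2 fold change 4.32, SE 0.54, adjusted p = 0.00309). In the streak gate it was at 1.75 and 0.564 CPM in WT and at 15.8 and 18.3 CPM in LSD1KO (log2 fold change 3.84, SE 0.57, adjusted p = 3.88e-05). WT values there rest on 4 and 3 UMIs over both libraries, so that the ratios of summed levels were 21.6 (counting interval 8.38 to 79.6) in the neuron-marker gate and 15.7 (5.30 to 76.9) in the streak gate. Klf2 and Zfp42 were the 2 members called in the neuron-marker gate out of 5 tested, against 6.41% of 12287 genes called higher and 10.4% in either direction. Neither passed the edgeR test when 2 UMIs of a marker were asked for (adjusted p = 0.144 and 0.0996). Both single-gate tests were added after the data had been seen.

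Among cells outside the gates that held no UMI of any of the 8 pluripotency markers, Zfp42 was at 0.872 and 1.01 CPM in 3757 and 5343 WT cells and at 38.1 and 27.2 CPM in 696 and 347 LSD1KO cells (log2 fold change 4.79, SE 0.31, adjusted p = 6.50e-06). It was 1 of 3 members called out of 9 tested, where 30.8% of 15429 genes were called. The other members called were Tfcp2l1 and Tbx3, which were lower (log2 fold changes −3.65 and −2.46). LSD1KO cells of this set were shallow, with a mean of 3246 and 3604 UMIs against 13430 and 9419 UMIs in WT. A shallow cell has less chance to show a marker, so the set does not hold the same kinds of cells in both genotypes.

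Counted per cell at 5000 UMIs, a Zfp42 UMI was found in 12.6% and 14.2% of LSD1KO cells with neuron markers. In WT the count there was 0 of 62 and 0 of 111 cells, which allows shares of up to 4.84% and 2.70%. In the streak gate 6.70% and 8.82% of LSD1KO cells held it, against 1.79% of cells in WT replicate 1 and 0 of 154 cells in WT replicate 2. Cells with both pluripotent and neuron markers, the largest gate of LSD1KO EBs, held it in 15.3% and 15.5%, the formative gate in 20.2% and 23.4% and the naive gate in 55.6% and 64.7% of LSD1KO cells. The naive gate of WT EBs held it in 83.3% and 77.1%. The order naive, formative, mixed, neuron-marker and streak held in both LSD1KO replicates, though the mixed and neuron-marker shares lay close together. Gates were set before thinning, and mixed-gate cells were deeper than formative-gate cells. The part of depth or of doublets in this order was not tested.

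In the empty droplets Zfp42 was at 2.48 and 10.6 CPM in WT and at 29.7 and 23.9 CPM in LSD1KO, near its level in LSD1KO cells outside the pluripotent gates. The 6 naive-side markers summed to 1.38 and 2.91 times the Zfp42 level in LSD1KO empty droplets and to 3.52 and 3.23 times in LSD1KO naive-gate cells. In the LSD1KO neuron-marker gate the ratio was 0.281 and 0.293, in the streak gate 1.07 and 0.324, in cells of no gate 0.536 and 0.976 and in all cells outside the pluripotent gates 0.543 and 0.625. In the mixed gate of pluripotent cells with neuron markers, the largest LSD1KO gate, it was 1.04 and 1.14. The droplet ratio differed between the LSD1KO replicates by more than the mixed-gate ratio did. What share of the Zfp42 UMIs is free RNA was not measured.

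**Figure D4:**
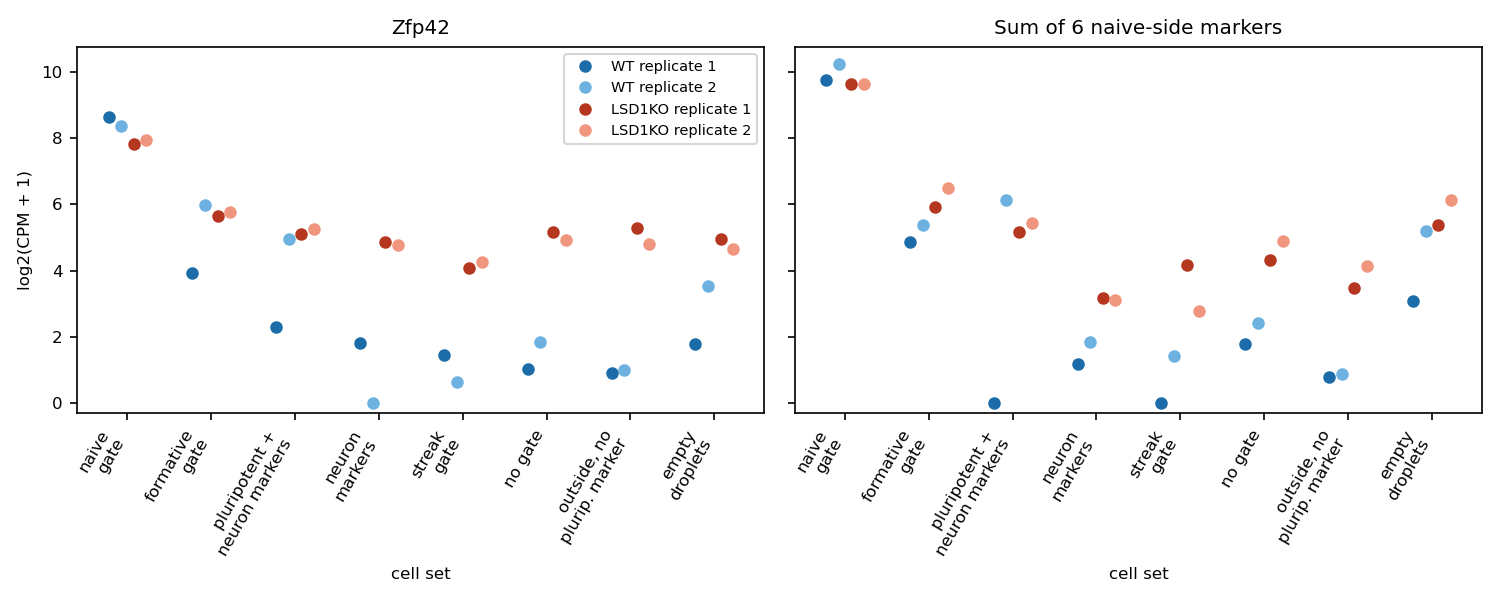
Zfp42 (left) and the sum of 6 naive-side marker genes (right), as log2(CPM + 1), in sets of cells and in empty droplets, with 1 point per library. Zfp42 of both LSD1KO libraries stays between 15.8 and 38.1 CPM in sets outside the pluripotent gates while WT lies at or under 2.61 CPM there, and the markers on the right drop further from the naive gate than Zfp42 does in LSD1KO.

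Whether the LSD1KO effect differed between pluripotent and other cells was tested directly, with the library as a block. It differed for 9 of 10 members, all but Tbx3, against 17% of 16503 genes in either direction, 9.32% with a higher and 7.65% with a lower fold change in the pluripotent gates. For each of the 9 the log2 fold change was lower in the pluripotent gates than outside. The difference was −6.15 for Zfp42 (adjusted p = 2.14e-09), −6.70 for Nr0b1 and −5.46 for Esrrb, and −1.33 for Klf5, which passed in neither compartment alone. For Tbx3 it was 0.07 (adjusted p = 0.904). Without WT replicate 2, 6 members were called, and Klf4, Tfcp2l1 and Prdm14 were lost. Prdm14 was also lost without LSD1KO replicate 1.

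In whole EBs, where both kinds of cells are summed, 3 of 10 members were called, where 44.2% of 16955 genes were, 22.6% higher and 21.6% lower. The median log2 fold change of the 10 was −0.41. In such sums fewer cells of a type and less RNA per cell cannot be told apart. Tbx3 was at 56.8 and 29.5 CPM in WT and at 8.13 and 2.60 CPM in LSD1KO (log2 fold change −3.13, SE 0.57, adjusted p = 0.00900). Tfcp2l1 was at 14.4 and 8.63 CPM in WT and at 2.84 and 2.17 CPM in LSD1KO (log2 fold change −2.32, SE 0.28, adjusted p = 0.00274). Zfp42 was at 3.06 and 12.4 CPM in WT and at 34.2 and 41.5 CPM in LSD1KO (log2 fold change 2.13, SE 0.62, adjusted p = 0.0385), a call that DESeq2 did not make and that was lost without LSD1KO replicate 2.

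The other 7 did not pass. Klf2 was at 7.64 and 19.6 CPM in WT and at 9.92 and 14.8 CPM in LSD1KO, so that the LSD1KO values lay between the WT values (log2 fold change −0.29, adjusted p = 0.648). Esrrb, at 1.34 and 3.28 CPM in WT and 1.57 and 2.43 CPM in LSD1KO, and Nr5a2, at 2.05 and 4.30 CPM in WT and 2.49 and 2.59 CPM in LSD1KO, behaved in the same way. The naive gate itself held 21 cells in WT replicate 1 and 154 in WT replicate 2. Klf4, Klf5, Prdm14 and Nr0b1 had log2 fold changes of −0.53, 0.41, −1.97 and 1.39 (adjusted p = 0.0541, 0.311, 0.0549 and 0.250). With the replicate number as a block 6 members were called, Klf4, Prdm14 and Nr0b1 being added, and without WT replicate 2 the count was 5, with Klf4 and Nr0b1 added.

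**Figure D5:**
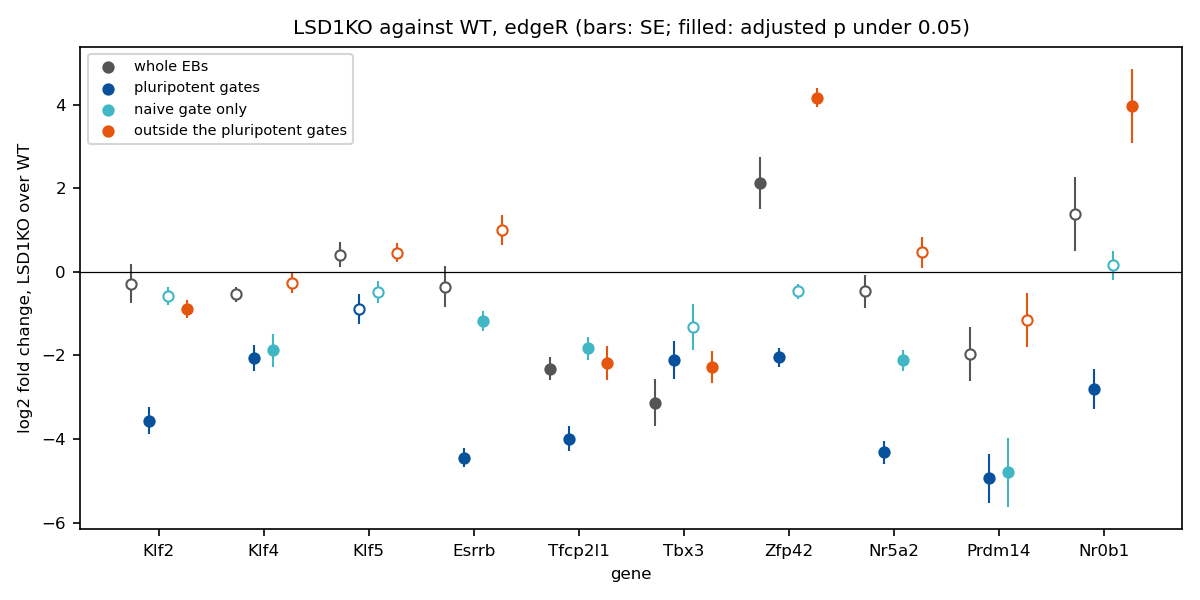
log2 fold change of LSD1KO over WT for each factor in whole EBs, pluripotent gates, the naive gate alone and cells outside the pluripotent gates, with bars of 1 SE and filled points where the adjusted p was under 0.05. Blue points of the pooled pluripotent gates lie below 0 for every factor. Outside these gates Zfp42 and Nr0b1 are above 0 with filled points, and Klf5, Esrrb and Nr5a2 are above 0 with open points. Grey points of whole EBs are filled for Tfcp2l1, Tbx3 and Zfp42.

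Genes that feed the naive network or are related to its members were read in the same fits. Of 14 LIF and naive inputs, 3 were higher and 4 lower in whole LSD1KO EBs (median log2 fold change −0.07, beside −0.000595 over all genes). With 44.2% of all genes called there, 22.6% higher and 21.6% lower, these counts are near the background. Gbx2, a Stat3 target that can hold the naive state, rose by 3.47, and Dusp6 and Spry4, feedback genes of the FGF and ERK pathway, rose by 1.68 and 0.92. Lifr, the LIF receptor, Tet2, Smad1 and Bmp4 were lower, with −1.38, −1.52, −0.61 and −2.07. In the pluripotent gates, where 10.8% of genes were called higher and 9.33% lower, 4 of the 14 were higher (Jak1, Socs3, Dusp6 and Spry4, with 0.51, 1.70, 1.76 and 1.25) and 3 were lower (Lifr, the co-receptor Il6st and Tet2, with −1.44, −1.20 and −2.84). Outside them Gbx2, Dusp6 and Spry4 were higher, with 4.03, 1.77 and 1.02, and Lifr, Tet2 and Bmp4 were lower, with −1.22, −1.34 and −1.43.

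Of 12 other Klf genes, Klf9 was higher by 0.76 in whole EBs and Klf6, Klf7 and Klf10 were lower, with −0.81, −0.30 and −0.42 (median 0.06), so that 4 of 12 were called where 44.2% of all genes were. In the pluripotent gates Klf9 and Klf10 were lower, with −0.47 and −0.52, beside −3.56 for Klf2 and −2.07 for Klf4. Of 12 relatives of the other members, 4 were lower in whole EBs, where 21.6% of all genes were, and none was higher (median −0.29). These were the T-box genes Tbx2 and Tbx5, with −4.02 and −3.74, and Prdm1 and Grhl2, with −2.72 and −1.72. Tbx2 and Tbx5 are heart factors, and cardiac-marker cells were 791 and 956 in WT and 0 in LSD1KO. The part of cell numbers in the Tbx2 and Tbx5 differences was not tested. In the pluripotent gates Esrrg was higher, by 2.42, and Tbx2 and Prdm1 were lower, with −2.94 and −3.34.

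Genes whose pattern was most like each member were sought over 30 gate-by-library sums of at least 30 cells, as Pearson correlations of log2(CPM + 1) among 11911 genes. These are descriptions, since the sums share libraries and depth. Zfp42 went with Gm2381 (r = 0.971), Triml2 (0.969) and Dnmt3l (0.966), and Triml2 lies 101186 bases from Zfp42 on chromosome 8 with 1 gene between them. Nr0b1 went with Fam25c, Pdcl2 and 2410141K09Rik (0.979, 0.977 and 0.977). Esrrb went with BC052688, Pla2g4e and Tcl1 (0.950, 0.943 and 0.935), of which Tcl1 is a marker of the naive gate. Nr5a2 went with Klf2, Tcl1 and Sod2 (0.867, 0.855 and 0.848), and Klf2 with Sod2, Nfatc2ip and Phf11d (0.879, 0.873 and 0.869).

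Tbx3 went with Cobll1, Nrp1 and Gata4 (0.843, 0.836 and 0.828), Gata4 being a factor of heart and endoderm, and its correlation with Zfp42 was −0.41. Tfcp2l1 went with Usp48, Ildr1 and B4galnt3 (0.859, 0.846 and 0.839), and Klf5 with Plekhf2, Ifitm3 and Hspb1 (0.836, 0.830 and 0.829). The leading partners of Klf4 and Prdm14 were less close, with Fbrsl1, Pfkp and Nabp1 (0.762, 0.737 and 0.703) for Klf4 and Eefsec, Mettl15 and Mobp (0.735, 0.705 and 0.701) for Prdm14.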

How the data were processed

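Each of the 4 libraries is 1 sample of single cells from day 6 EBs. The authors made the counts with Cell Ranger 7.1.0 from 10x 3′ v3.1 libraries, against mm9 per the submitters' processing notes, and the deposited matrices hold raw UMI counts per gene and barcode, empty droplets included, with no normalization. A barcode counted as a cell from 500 UMIs and 500 genes upward, as in the study, whose own clusters (Seurat 4.3.0) were not used here.

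The 10 members, the marker lists and the other gene lists were chosen with earlier results of these data known. The rule that turns marker counts into a gate was set after marker counts had been looked at, as were the tests of single gates and of cells with no pluripotency marker. Named are the members, Kdm1a, the 3 genes most like each member over gate sums, and genes of the lists that passed. The germ cell and pluripotency markers given for the naive gate were named after their values had been seen.

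UMIs were summed per library and set of cells, since cells are not replicates, and n is 2 libraries per genotype. The study calls the replicates biological, and p-values measure the spread between these libraries, which may be partly technical. Sums were tested with edgeR 4.0.16 (TMM, filterByExpr, quasi-likelihood) in R 4.3.3, with Benjamini-Hochberg adjustment over all genes tested and a threshold of 0.05. CPM values are plain shares of the UMI total of a set. The difference between compartments was an interaction with library as a block. Chi-square per degree of freedom between replicates was 63.1 in WT and 27.8 in LSD1KO. Poisson and binomial intervals are exact at 95% and cover counting error only. Counting was not stated to use strand per gene, and Tbx3 overlaps the antisense transcript Gm2301. Gene positions are from GENCODE on NCBIM37, the assembly of mm9.

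Alternatives were library totals in place of TMM, no filter on genes, DESeq2 1.42.0, stricter cells (2000 UMIs and 1000 genes), removal of the highest Scrublet scores (scanpy 1.11.5, 0.8% per 1000 cells), 4 markers per gate, 2 UMIs per marker, the replicate number as a block, and each library left out.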

Additional observations from a re-analysis of the deposited data

Results flagged for a closer look

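The effect of LSD1KO differed between pluripotent cells and all other cells of the same libraries for 9 of 10 members, by a test of the interaction itself (edgeR, library as a block, adjusted p under 0.05), where 17% of all genes did. As log2 fold change in the pluripotent gates minus that outside them, the difference was −6.70 for Nr0b1, −6.15 for Zfp42, −5.46 for Esrrb, −4.74 for Nr5a2, −3.48 for Prdm14, −2.60 for Klf2, −1.95 for Tfcp2l1, −1.91 for Klf4 and −1.33 for Klf5. The 9 values share 1 sign but not 1 pattern. Zfp42 was lower in the pluripotent gates and higher outside, Esrrb, Nr5a2, Prdm14 and Klf4 were lower in the pluripotent gates with no call outside, and Klf2 and Tfcp2l1 were lower in both. Nr0b1 outside the pluripotent gates rests on 17 UMIs over the 4 libraries. Outside those gates Klf2 in all 4 libraries, and Nr0b1 in both LSD1KO libraries, lay below the level of the gene in empty droplets. The part of free RNA in these values was not tested. The pools compared hold naive cells in unlike shares, and cells outside the gates held pluripotency markers more often in LSD1KO than in WT. The part of either in these differences was not tested.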

How the results depend on the processing

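Of 685 values of single members under alternatives, 607 kept direction and side of the threshold, 44 lost a call, 24 gained one and 10 turned direction. Depth limits Prdm14 and Nr0b1 most, and with 2 libraries per genotype WT replicate 2, which holds most WT naive cells, decides the most calls.

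In whole EBs 3 members were called, and 6 with the replicate block and 3 to 5 with 1 library left out. The replicate block changed no count by more than 1.5 times elsewhere. Whether equal replicate numbers mark a shared batch is not given in the sources used here. Deviations of same-numbered libraries from the group means correlated with r = 0.214 over 8908 genes, and 2 pairs are too few to decide the pairing. With 1 library left out, the log2 fold change in whole EBs ranged from −0.83 to 0.61 for Klf2, −0.88 to 0.48 for Esrrb, −0.93 to 0.22 for Nr5a2 and −0.14 to 0.81 for Klf5. None of these was called in the full data. Outside the pluripotent gates Klf4 ranged from −0.54 to 0.0793, and in the naive gate Nr0b1 from −0.0801 to 0.32. The Tbx3 difference between compartments turned to −0.14 with library totals, −0.25 with 4 markers and −0.39 with 2 UMIs per marker, and ranged from −0.0737 to 0.37 with 1 library left out. These are values near 0, and the cause of each turn was not tested.

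In the pluripotent gates 5 to 8 members were called with 1 library left out. In the naive gate DESeq2 called 2 and leaving out a library gave 3 to 6. In the formative gate DESeq2 and removal of high Scrublet scores each called 1, and leaving out a library gave 1 to 3. In the neuron-marker gate edgeR called 0 of 5 tested with 2 UMIs per marker, where 2 had an unadjusted p under 0.05, and DESeq2, run on the gate as described in the report, called 2. In the streak gate library totals, DESeq2 and 2 UMIs per marker each called 1, as against 1 to 2 with a library left out. The summed level of the 10 members in WT naive-gate cells, 1156 CPM, became 1205 CPM without high Scrublet scores and 1181 CPM with 4 markers. Calls among the genes of the other lists in whole EBs numbered 15, and 12 to 19 under alternatives.

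Library totals in place of TMM moved the median log2 fold change of all genes to 0.131 in whole EBs, 0.204 outside the pluripotent gates, 0.314 in cells with no pluripotency marker, −0.115 in the naive gate, 0.123 in the streak gate and −0.135 in the interaction. The share of calls that were higher went from 51.2% to 65.2%, 52.3% to 72.9%, 52.2% to 80.6%, 61.2% to 48.3%, 51.3% to 66.1% and 54.9% to 26.2% in that order. No called member turned direction under them.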
